A study of Mus musculus with 15 samples.

Results

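The transcripts examined here encode the proteins of the mitochondrial ribosome, measured by RNA sequencing in the gastrocnemius of 15 aged female mice. Members were the protein-coding mouse genes whose symbol starts with Mrpl (large subunit) or Mrps (small subunit) followed by a number, and whose mean count over the 15 mice was at least 10. These were 77 of the 78 such genes among the 55450 genes counted, 48 of the large subunit and 29 of the small subunit. Mrpl53, with a mean count of 2.87 and counts between 0 and 7, was the gene left out, and 88% of its exon length is covered on the same strand by the gene model Gm42688. The member nearest the limit, Mrpl23, had a mean count of 90.7, and all 77 members passed the filter on low counts. The mice were C57BL/6JN females older than 17 months, in 4 groups. Low Control mice (n = 4) and Low Run mice (n = 4) carried at most 1 frailty marker and are called robust in the deposited labels, and High Control mice (n = 3) and High Run mice (n = 4) carried 2 or more and are called frail. Run mice had run downhill on a treadmill in 2 bouts (speed 13 m/min, slope 22 degrees downward), and their muscle was taken 24 h after the last bout, whereas Control mice stayed sedentary in their cages. Each library was 1 mouse, and there was no young or male group. Per the paper, the markers were scored against its full cohort of aged females, of which these mice were a part. Low and High are thus relative to that cohort.

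Counts per mouse totalled between 19395125 and 30699216, and the members together took between 0.241% and 0.39% of them. All 7 skeletal muscle markers examined were present in every mouse, at a summed level of 104710 to 169760 CPM (counts scaled to the library total with TMM factors). In whole muscle, a smaller number of cells of a type and less RNA per cell cannot be told apart. The gene-level counts used here cover non-mitochondrial genes, so the ribosomal RNAs of the mitochondrial ribosome are not analysed here.

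The mitochondrial ribosome sits in the mitochondrial matrix and translates the few messenger RNAs of the mitochondrial genome, which encode core subunits of the respiratory chain and of ATP synthase. Its RNA comes from mitochondrial DNA, while its proteins are encoded in the nucleus, made in the cytosol and imported, so its assembly depends on both genomes. Skeletal muscle relies on it to renew oxidative capacity, and defects in single ribosomal proteins are known to cause combined deficiencies of the respiratory chain.

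Promoters of the members are described first. Whether their motifs relate to how the members varied together from mouse to mouse, described further on, was not tested. A RefSeq promoter (GRCm38.p6, 250 bases before to 50 after the transcription start) was listed for 68 of the 77 members. It was missing for Mrpl4, Mrpl13, Mrpl15, Mrpl19, Mrpl38, Mrpl54, Mrps28, Mrps34 and Mrps35. In the printed sequences, the 80 bases upstream of the start are given 5′ to 3′ along the gene's strand, and capitals mark a match to the core of ETS-family factors, which include GABP (CCGGAAGT, on either strand). Only windows without any annotated exon were considered, which held for 19 members. Mrps22 (chr9:98601680-98601759, minus strand) and Mrps36 (chr13:100744660-100744739, minus strand) are shown because they are among the members with the smallest p-values. Mrpl43 (chr19:45006443-45006522, minus strand) and Mrps27 (chr13:99344706-99344785, plus strand) are shown because they had the ETS core and the highest correlation with the rest of their subunit among such members. All of these windows lie upstream of the gene's annotated transcripts, with a short gap for Mrps22, and hold no annotated exon.
Mrps22: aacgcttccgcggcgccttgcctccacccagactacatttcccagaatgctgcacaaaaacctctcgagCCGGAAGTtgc
Mrpl43: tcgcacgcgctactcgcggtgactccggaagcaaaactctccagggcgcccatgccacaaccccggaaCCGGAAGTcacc
Mrps27: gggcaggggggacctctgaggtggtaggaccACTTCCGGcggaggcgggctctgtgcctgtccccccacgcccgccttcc
Mrps36: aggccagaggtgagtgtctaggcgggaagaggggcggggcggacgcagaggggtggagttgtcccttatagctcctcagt

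The ETS core was present in 12 of the 68 promoters over the full window of 300 bases (17.6%), against 8.24% of the promoters of other tested genes and 4.31% of all listed promoters. The core of NRF1 (GCGCATGC), a regulator of nuclear genes for mitochondrial proteins, was found in 8 (11.8%), against 5.37% of other tested genes and 3.05% of all. YY1's core (AAGATGGCG) was likewise found in 8 (11.8%), against 3.18% and 1.64%. An E-box (CACGTG) was found in 5 (7.35%), against 11.4% and 8.09%, and the ERR element (TCAAGGTCA) in 0, against 0.317% and 0.466%. At least 1 of the first 3 cores was present in 26 members (38.2%), against 15.6% of other tested genes, and 1 member held both the ETS and the NRF1 core. Both strands were searched, and these letter matches are a description of the sequence, not of binding.

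Levels differed widely between members. RPKM (CPM divided by exon length in kilobases, a level per length) had a median of 14.3 over the members and ranged from 0.728 to 109.9, with a median of 16.2 in the large and 8.56 in the small subunit (26.2 and 18.6 by the principal transcript described below). The highest were Mrps21 (RPKM 109.9), a small subunit protein with a bacterial counterpart, Mrpl2 (63.9), which lies near the peptidyl transferase centre, and Mrpl18 (59.99), a protein of the central protuberance. The lowest were Mrpl23 (0.728), a protein at the exit of the peptide tunnel, Mrps35 (2.38) and Mrps10 (2.44), both of the small subunit. Length used the union of all annotated exons, which dilutes genes with long rare transcripts. With the length of the principal transcript, a choice made after seeing the data, Mrps21 stayed first (200.5), while Mrps10 moved from rank 75 to rank 44 (19.4), Mrpl42 from rank 14 to rank 2 (184.3) and Mrpl33 from rank 63 to rank 4 (92.3). Mrpl23 was at rank 74 (5.14) on that scale.

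**Figure D1:**
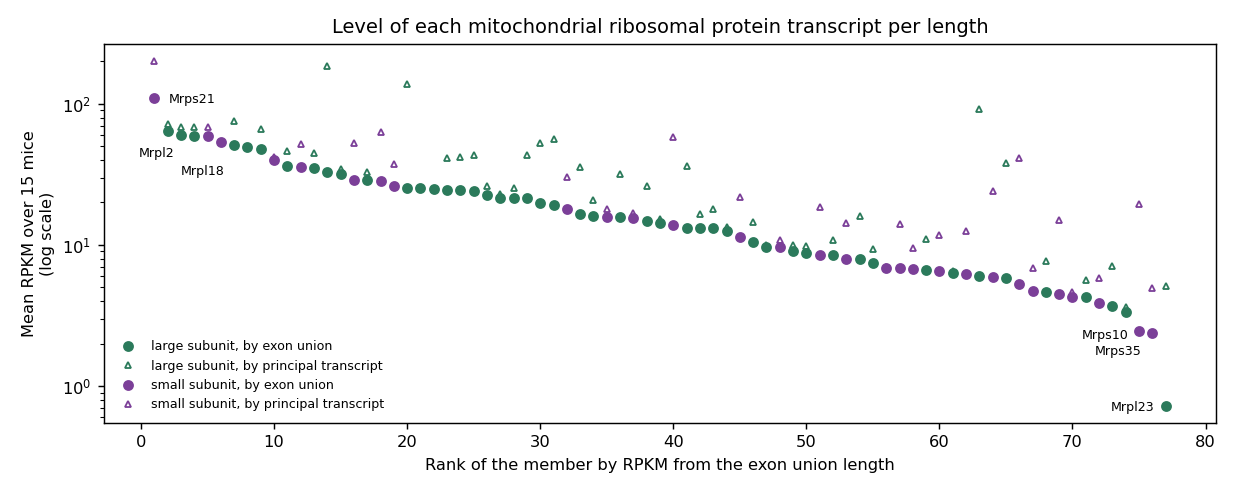
Mean RPKM over the 15 mice (vertical axis, log scale) of the 77 members in order of their level from the exon union length (filled circles), with the level from the principal transcript as open triangles. Mrps21 is highest at 109.9 and Mrpl23 lowest at 0.728, and the triangles show which members would rank higher by their principal transcript.

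A score per mouse was taken for each subunit as the mean over its members of the deposited variance-stabilized value (VST, on a scale close to log2) minus that gene's mean over the 15 mice. In Low Control mice the large subunit score was -0.12 in D8, -0.27 in D9, -0.04 in D11 and -0.03 in D98. In Low Run mice it was 0.16 in D57, -0.06 in D61, -0.01 in D66 and 0.26 in D68. High Control mice had scores of 0.05 in D23, -0.02 in D25 and 0.10 in D67, and High Run mice had -0.10 in D49, -0.09 in D52, 0.26 in D53 and -0.10 in D62. Among Low Run mice, D57, D66 and D68 were above all Low Control mice and D61 was within them. In High Run mice D53 was above all High Control mice and the other 3 were below all of them.

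The small subunit followed the same mice. Its scores were -0.12, -0.22, -0.05 and -0.03 in Low Control (D8, D9, D11, D98) and 0.18, -0.04, 0.00 and 0.25 in Low Run (D57, D61, D66, D68). They were 0.06, -0.01 and 0.10 in High Control (D23, D25, D67) and -0.12, -0.11, 0.21 and -0.10 in High Run (D49, D52, D53, D62). Low Control mice averaged -0.11 ± 0.11 (SD, n = 4) in the large subunit score and Low Run mice 0.09 ± 0.15 (n = 4). High Control mice averaged 0.04 ± 0.06 (n = 3), and High Run mice averaged -0.01 ± 0.18 (n = 4). The mean difference between Low Run and Low Control was 0.20 for both subunits, against a pooled SD within groups of 0.14 for the large and 0.12 for the small subunit. Between High Run and High Control it was -0.05 for the large and -0.08 for the small subunit, less than that SD, and without D53 it was -0.14 and -0.16.

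**Figure D2:**
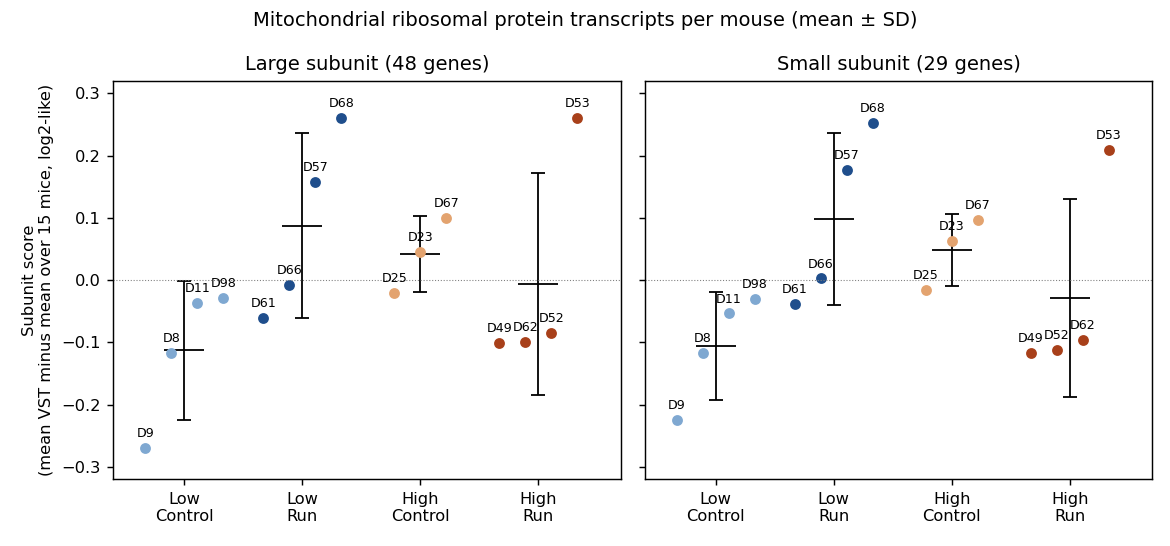
Large and small subunit scores (vertical axis, log2-like VST units relative to the mean of 15 mice) of each mouse in the 4 groups, with bars for mean and SD. Low Control scores are all below 0, and in High Run mouse D53 lies at 0.26 and 0.21 while the other 3 mice lie between -0.12 and -0.09.

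Most members varied together among mice of the same group. After removal of the group means, the correlation of a member with the mean of the other members of its subunit over the 15 mice had a median of 0.805 in the large and 0.68 in the small subunit, and 59 of 77 members exceeded 0.5. For other tested genes the median correlation with the large subunit mean was -0.0265 and with the small subunit mean -0.0281. Means of both subunits correlated at 0.995. These are descriptions over 15 libraries that share depth and composition, since a single library such as D53 or D9 contributes to every member at once. Mrpl33 (0.947), Mrpl54 (0.939) and Mrps21 (0.93) followed their subunit most closely. Mrpl50 (-0.44), Mrpl9 (-0.12), Mrpl41 (-0.0598), Mrpl23 (-0.0528) and Mrpl47 (-0.0359) did not follow it, and these are the 5 large subunit members whose log2 fold change in Low mice was below 0. The tested genes outside the family whose values were most like the member mean were Atp6v1e1 (0.979), Ier3ip1 (0.97), Emc2 (0.968) and Timm13 (0.967).

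The running comparison in Low mice asked how the transcripts differed 24 h after downhill running in mice with few frailty markers. Members were mostly higher in Low Run, with 71 of 77 log2 fold changes above 0 and a median of 0.23 (range -0.15 to 0.51), beside a median of 0.02 and 51.9% above 0 over all 16920 genes tested. The median was 0.25 in the large and 0.22 in the small subunit. None of the differences passed the threshold. By edgeR's quasi-likelihood test with Benjamini-Hochberg adjustment over all tested genes, 0 members were called at a false discovery rate (FDR) of 0.1, where 0% of all genes were called, and the smallest adjusted p of a member was 0.358. DESeq2 and voom with quality weights also called 0 members, where DESeq2 called 10 of all genes and voom 0. At an unadjusted p under 0.05, 14 members were higher (9 large, 5 small) and 0 lower, against 5.92% of all tested genes higher and 7.52% lower. DESeq2 gave the same count of 14, against 3.22% of all genes higher. That share is over 35372 genes without a count filter and is not on the same base as 5.92%.

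Mrps18c, a small subunit protein with paralogues Mrps18a and Mrps18b, had the smallest p. Its level was 16.4 CPM in D8, 14.2 in D9, 17.0 in D11 and 16.3 in D98, and 26.1 in D57, 18.5 in D61, 18.2 in D66 and 23.1 in D68. Every Low Run mouse was thus above every Low Control mouse, with a log2 fold change of 0.43 (SE 0.14, edgeR adjusted p = 0.358). On the same strand, 23.2% of the exon length of Mrps18c is shared with the gene model Gm43511, so part of its reads could not be assigned to 1 gene. Mrpl49 had 23.8, 16.4, 25.3 and 25.3 CPM in Low Control mice (D8, D9, D11, D98) and 30.4, 26.1, 32.3 and 30.8 in Low Run mice (D57, D61, D66, D68). The groups did not overlap, though D9 was far below the other Low Control mice, and the log2 fold change was 0.40 (SE 0.14, edgeR adjusted p = 0.358). Mrpl4, a protein that lines the peptide tunnel, had 35.6, 34.6, 39.2 and 36.7 CPM in Low Control mice and 47.0, 44.0, 41.6 and 49.5 in Low Run mice in the same order. Its groups did not overlap either, at a log2 fold change of 0.32 (SE 0.12, edgeR adjusted p = 0.358).

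In all, 15 members (11 large, 4 small) had every Low Run mouse above every Low Control mouse and 0 had the reverse, where 3.35% of all tested genes were higher and 3.59% lower without overlap. The largest log2 fold changes in Low mice were 0.51 for Mrps33, 0.46 for Mrps36 and 0.44 for Mrpl39, named after their values were seen. Without Low Control mouse D98 the members higher without overlap were 25 (6.42% of all tested genes), and without Low Run mouse D61 they were 24 (6.02%). The count of 14 members at an unadjusted p under 0.05 also depended on single mice. It was 4 without Low Control mouse D9 (2.63% of all genes higher at that p), 4 without Low Run mouse D68 (4.59%), 6 without Low Run mouse D57 (3.8%) and 9 without Low Control mouse D8 (4.67%). It was 20 without D98 (7.07%) and 22 without High Run mouse D53 (6.59%), which is in neither Low group and enters through the shared fit. Without D68 the medians were 0.16 in the large and 0.12 in the small subunit, and without D9 the large subunit median was 0.16.

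In the same comparison in High mice the member median lay near 0. Of the 77 members 32 had a log2 fold change above 0, with a median of -0.02 (range -0.44 to 0.33), beside a median of 0.05 and 57.2% above 0 over all tested genes. EdgeR's quasi-likelihood test with Benjamini-Hochberg adjustment called 0 members at an FDR of 0.1 (0% of all genes), with a smallest adjusted p of 0.956. At an unadjusted p under 0.05 there were 0 members higher and 0 lower, against 3.28% and 1.9% of all genes, while DESeq2 gave 1 lower (1.21% of all genes) and voom with quality weights 7 lower (5.57% of all genes lower and 8.02% higher). None of these members was called at an FDR of 0.1, where DESeq2 called 15 of all genes and voom 45. The number of members above 0 was 12 with voom, with medians of -0.09 in the large and -0.14 in the small subunit, and 20 with offsets for gene length and GC content.

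Mrps36, named as a small subunit protein but now known as a subunit of the oxoglutarate dehydrogenase complex, had the smallest p in High mice. It measured 10.1 CPM in D23, 9.30 in D25 and 9.14 in D67, and 8.19 in D49, 7.79 in D52, 7.35 in D53 and 4.76 in D62. All High Run mice were below all High Control mice, at a log2 fold change of -0.44 (SE 0.21, edgeR adjusted p = 0.956), from counts of 120 to 271 per mouse over the 15 mice. Mrps11, a protein of the small subunit platform, had 17.0, 16.9 and 17.4 CPM in High Control mice (D23, D25, D67) and 14.7, 15.9, 13.8 and 10.4 in High Run mice (D49, D52, D53, D62). These groups did not overlap, with a log2 fold change of -0.32 (SE 0.16, edgeR adjusted p = 0.956). For Mrps22, a small subunit protein without bacterial counterpart, the values were 18.5, 21.6 and 21.4 CPM in High Control and 17.7, 15.8, 20.7 and 13.98 in High Run. D53 was among the High Control values there, and the log2 fold change was -0.27 (SE 0.16, edgeR adjusted p = 0.956).

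Mrps11 and Mrps36, with Mrpl42 and Mrpl50, were the 4 members lower in every High Run mouse than in every High Control mouse, and 0 members were higher without overlap, against 3.6% and 3.47% of all tested genes. Mouse D53 decided this count, since 25 members were lower without overlap once it was left out, where 8.2% of all tested genes were lower and 8% higher. Without D53 the medians in High mice were -0.13 in the large and -0.12 in the small subunit, 9 members had a log2 fold change above 0, and 2 members were lower at an unadjusted p under 0.05 (2.53% of all genes), with 0 called at an FDR of 0.1. Leaving out D49 or D52 gave 1 and 2 members lower at that p, where 2.83% and 2.06% of all genes were lower. The medians, which are near 0, changed sign in 1 or both subunits without D49, D52, D62 or D67.

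**Figure D3:**
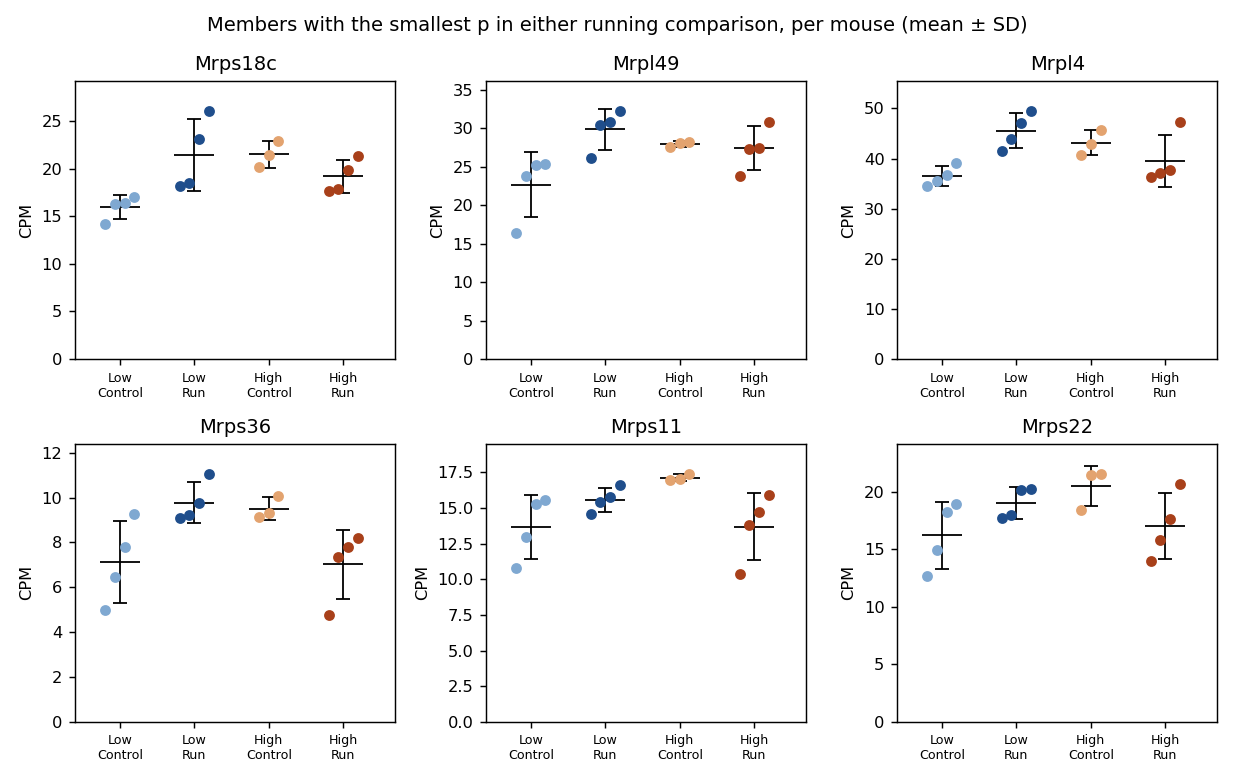
CPM (vertical axis, from 0) of the 3 members with the smallest p in the Low comparison (top row) and in the High comparison (bottom row) for each mouse of the 4 groups, with bars for mean and SD. Low Run lies above Low Control without overlap for Mrps18c, Mrpl49 and Mrpl4, and High Run lies below High Control without overlap for Mrps36 and Mrps11.

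The Frailty × Run interaction asked whether the running difference depended on the frailty group. A negative value means that the log2 difference, Run minus Control, was lower (more negative or less positive) in High than in Low mice. Of the members 70 were below 0, with a median of -0.25 in the large and -0.22 in the small subunit, beside a median of 0.03 over all tested genes. EdgeR's quasi-likelihood test with Benjamini-Hochberg adjustment called 0 members at an FDR of 0.1 (0% of all genes), with a smallest adjusted p of 0.6, and DESeq2 and voom with quality weights also called 0. At an unadjusted p under 0.05 there were 8 members lower (3 large, 5 small) and 0 higher, against 2.69% and 5.24% of all genes.

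The most negative value was that of Mrps36, at -0.90 (SE 0.29, edgeR adjusted p = 0.6). Its CPM in Low mice were 6.47, 4.97, 7.78 and 9.26 in Control (D8, D9, D11, D98) and 9.08, 9.76, 9.21 and 11.1 in Run (D57, D61, D66, D68). Low Run mice were mostly above Low Control mice, with D98 among them, whereas in High mice every Run value was the lower. Mrps18c followed at -0.59 (SE 0.20), with 20.2, 21.5 and 22.9 CPM in High Control and 17.7, 17.9, 21.4 and 19.9 in High Run. Mrpl4 was at -0.44 (SE 0.17), with 40.8, 43.0 and 45.8 CPM in High Control and 36.2, 37.7, 47.3 and 37.1 in High Run, where D53 alone was above the High Control mice. In place of 8 members, the count was 23 without D53 (5.5% of all genes lower at that p). It was 2 without High Control mouse D67 (1.7%) and 3 without High Run mouse D62 (1.89%). Without D8 or D57 it was 4 (2.67% and 1.99%), and without D9, D68, D23, D25 or D52 it was 5 (1.74% to 2.56%). Without D49 or D66 it was 6 (2.39% and 2.35%), and without D11, D98 or D61 it was 11 (2.65% to 3.92%). Without D53 the small subunit median was -0.36, and without D68 the large subunit median was -0.15.

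Frailty groups were then compared at rest and after running. These comparisons use the same Control and Run mice as the running comparisons and are not independent of them. Between High Control and Low Control 68 of 77 members had a log2 fold change above 0, with a median of 0.16 (all tested genes -0.02). At an FDR of 0.1 edgeR's quasi-likelihood test called 0 members (0% of all genes), as did DESeq2 and voom with quality weights, with a smallest adjusted p of 0.704. At an unadjusted p under 0.05 it gave 1 higher and 0 lower, against 1.8% and 4.06% of all genes. The 1 member was Mrps18c (log2 fold change 0.43, SE 0.15, edgeR adjusted p = 0.704), whose 3 High Control values were above all 4 Low Control values. Mrps22 (0.34, SE 0.16) and Mrps11 (0.33, SE 0.16) had the next smallest p. That count was 7 without Low Control mouse D98 (3.72% of all genes higher at that p), 3 without D11 (2.23%) and 3 without D23 (1.74%), and the large subunit median was 0.10 without D9.

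Between High Run and Low Run 65 members were below 0, with a median of -0.10 (all tested genes 0.01). EdgeR's quasi-likelihood test again called 0 members at an FDR of 0.1 (0% of all genes), as did DESeq2 and voom with quality weights, with a smallest adjusted p of 0.999. At an unadjusted p under 0.05 there were 0 higher and 1 lower, against 1.52% and 0.987% of all genes. The 1 member was Mrps36, at -0.48 (SE 0.20, edgeR adjusted p = 0.999), with every High Run mouse below every Low Run mouse. Mrpl10 was at -0.25 (SE 0.14) and Mrpl4 at -0.20 (SE 0.12). That count was 12 without D53 (2.41% of all genes lower at that p) and 0 without D68 (1.51%) or D62 (0.75%). The medians without D53 were -0.21 in both subunits. Without D68 they were -0.02 in the large and -0.07 in the small subunit.

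**Figure D4:**
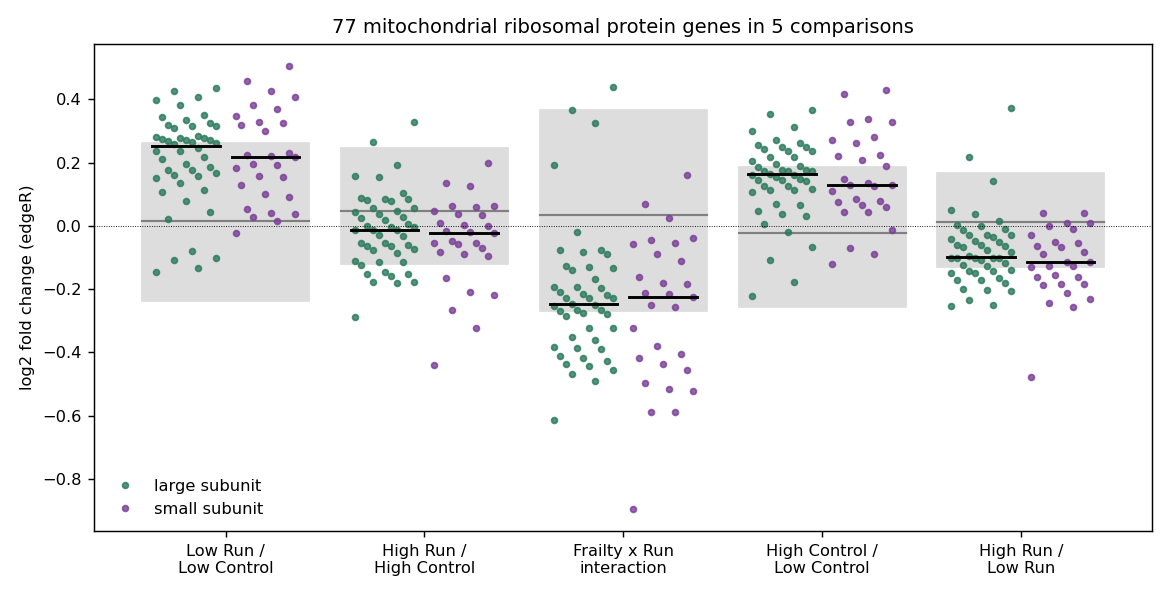
Log2 fold change (vertical axis, edgeR) of each of the 77 members in the 5 comparisons, large subunit at the left and small subunit at the right of each column, with black lines for the subunit medians. Grey boxes and lines show the quartiles and median of all 16920 tested genes, and the member medians lie at 0.25 and 0.22 in Low mice, at -0.01 and -0.02 in High mice and at -0.25 and -0.22 for the interaction.

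Gene length moved with the member scores. By exon union length, 35 of the members were in the shortest of 4 equal length classes of tested genes (up to 2109 bases) and 12 in the longest. Per mouse, the median value of short genes relative to long genes, each against its mean over mice on the log2 CPM scale, was 0.39 in D57, 0.37 in D68 and 0.44 in D53, the 3 mice with the highest member scores, and -0.35 in D9, the mouse with the lowest. It lay between -0.26 and 0.06 in the other 11 mice. Within 4 equal classes of length, the median log2 fold change of members in Low mice was 0.27, 0.19, 0.15 and 0.20 from the shortest to the longest, and that of the other genes was 0.18, 0.09, -0.04 and -0.15. Members were thus above other genes of the same class of exon union length, by 0.09, 0.10, 0.19 and 0.35. That length can exceed the main transcript, as for Mrpl33 in the longest class (7326 bases, principal transcript 478). Classes by principal transcript length were not tested.

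In High mice the member medians were -0.05, -0.01, 0.03 and 0.00 from the shortest to the longest class, against 0.07, 0.05, 0.02 and 0.05 in other genes. For the interaction they were -0.32, -0.22, -0.17 and -0.18, against -0.09, -0.05, 0.07 and 0.19. With a correction of each mouse for gene length and GC content, the Low medians were 0.13 in the large and 0.17 in the small subunit, 67 of 77 members were above 0, 7 were higher at an unadjusted p under 0.05 (4.41% of all genes) and 3 did not overlap between groups (2.04% of all genes higher), in place of 15. On log2 CPM the large subunit score differed between Low Run and Low Control by 0.22 before and 0.13 after that correction, and the small subunit score by 0.22 and 0.15.

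**Figure D5:**
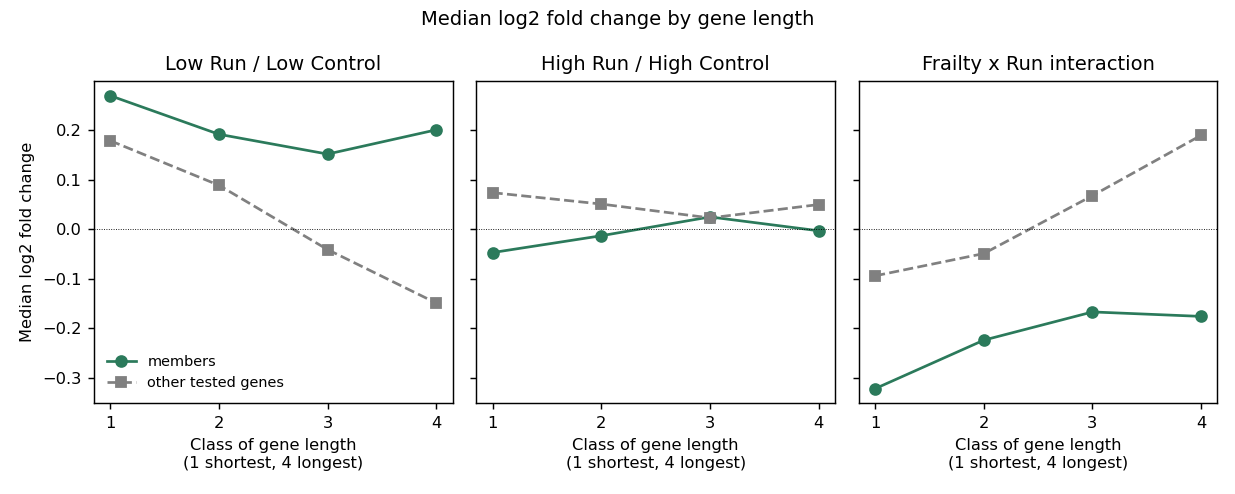
Median log2 fold change (vertical axis) of the members (circles) and of the other tested genes (squares) in each of 4 classes of exon union length, from the shortest to the longest, for the 2 running comparisons and the interaction. In Low mice members go from 0.27 to 0.20 while other genes go from 0.18 to -0.15, and for the interaction members lie below other genes in each class.

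Members with a known role were examined next. Mrpl10, Mrpl11 and Mrpl12 belong to the stalk and its base, where translation factors bind. Mrpl12 had 79.2, 63.9, 89.95 and 87.3 CPM in Low Control (D8, D9, D11, D98), 89.1, 91.4, 90.4 and 128.3 in Low Run (D57, D61, D66, D68), 89.3, 85.4 and 96.6 in High Control (D23, D25, D67) and 91.3, 81.98, 131.2 and 67.1 in High Run (D49, D52, D53, D62). D68 and D53 were far above the other Run mice, the groups overlapped, and the log2 fold change was 0.32 (SE 0.19) in Low and 0.04 (SE 0.21) in High mice. Mrpl10 was at 0.29 (SE 0.14) and -0.08 (SE 0.15), and Mrpl11 at 0.16 (SE 0.16) and 0.08 (SE 0.17). Mrpl45, which helps to bind the ribosome to the inner membrane, was at 0.25 (SE 0.17) in Low and -0.00 (SE 0.19) in High mice.

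Mrpl58, a peptidyl-tRNA hydrolase that releases stalled ribosomes, had 23.3, 16.7, 25.6 and 29.6 CPM in Low Control and 35.2, 27.0, 29.8 and 35.9 in Low Run mice. Only D98 was within the Low Run range, and the log2 fold change was 0.43 (SE 0.17, edgeR adjusted p = 0.358) in Low and 0.10 (SE 0.18) in High mice. Mrps12, a protein of the decoding site, was at 0.32 (SE 0.17) and -0.06 (SE 0.18), and Mrps5, also of the small subunit, was at 0.10 (SE 0.10) and 0.06 (SE 0.11).

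Mrps30 and Mrps18a carry small subunit names but lie in the large subunit by structure. Mrps30 was at 0.04 (SE 0.15) in Low and 0.20 (SE 0.16) in High mice, and Mrps18a at 0.03 (SE 0.13) and -0.08 (SE 0.14). Counting both as large subunit proteins, and leaving Mrps36 out of the small subunit, gave medians in Low mice of 0.24 and 0.22. Mrps18b, the other paralogue of Mrps18c, was at -0.02 (SE 0.18) in Low and 0.05 (SE 0.20) in High mice, with 32.9 CPM in D9 and 19.9 to 23.4 in the other Low Control mice. Whether Mrps18c differed from its paralogues was not tested.

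Members with a bacterial counterpart were set beside those without. Mrps18c was counted with a counterpart and Mrps18a and Mrps18b without one, although all 3 are related to the same bacterial protein. In Low mice the median log2 fold change was 0.22 in the 28 large subunit members with a counterpart and 0.27 in the 20 without, and 0.21 in the 14 and 0.22 in the 15 small subunit members. In High mice these medians lay between -0.04 and -0.01, and for the interaction between -0.26 and -0.21. With Mrps18a and Mrps18b also counted with a counterpart, a choice made after seeing the data, the small subunit medians in Low mice were 0.17 in the 16 with and 0.22 in the 13 without a counterpart, and for the interaction -0.24 and -0.22.

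Other genes for mitochondrial translation were described from lists of the same kind, with 0 called at an FDR of 0.1 by edgeR's quasi-likelihood test in any comparison. In Low mice 5.92% of all tested genes were higher and 7.52% lower at an unadjusted p under 0.05. The genes counted at that p in this paragraph were all higher. All 5 mitochondrial ribosomal proteins with other names were above 0 in Low mice (median 0.28, 2 at an unadjusted p under 0.05) and below 0 in High mice (median -0.09). Among them Chchd1 was at 0.33 (SE 0.14) and Aurkaip1 at 0.28 (SE 0.13) in Low mice. Of 11 translation factors 8 were above 0 in Low mice (median 0.11, 1 at that p) and 1 in High mice (median -0.10), and Tufm, the elongation factor that brings aminoacyl-tRNA to the ribosome, was at 0.30 (SE 0.13) in Low and -0.17 (SE 0.14) in High mice, with Tsfm, its exchange factor, at 0.23 (SE 0.15) in Low mice. Among 22 assembly and rRNA modification factors 14 were above 0 in Low mice (median 0.08, 1 at that p) and 10 in High mice (median -0.03). Tfb1m, which methylates the small subunit RNA, was at 0.61 (SE 0.18) and Mrm2, a methyltransferase of the large subunit RNA, at 0.54 (SE 0.26).

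Mitochondrial aminoacyl-tRNA synthetases, which charge tRNAs in the matrix, were above 0 for 11 of 17 in Low mice (median 0.11) and 4 of 17 in High mice (median -0.08). Lars2 was the 1 at an unadjusted p under 0.05 in Low mice, at -0.49 (SE 0.23), where 7.52% of all tested genes were lower. Iars2 was at -0.27 (SE 0.14). Of 6 genes for mitochondrial transcription and RNA stability 3 were above 0 in Low mice (median -0.03), and Polrmt, the mitochondrial RNA polymerase and the 1 gene of the list at that p, was at -0.54 (SE 0.21) with Tfb2m at -0.17 (SE 0.12).

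Complex I subunits and cytosolic ribosomal proteins were set beside the members as the most like gene families. All 37 complex I subunits were above 0 in Low mice (median 0.26, members 0.23, with 4 higher at an unadjusted p under 0.05 where 5.92% of all genes were) and 7 of 37 in High mice (median -0.09, members -0.02). For the interaction all 37 were below 0 (median -0.38, members -0.25, all tested genes 0.03). Between High Control and Low Control all 37 were above 0 (median 0.21, members 0.16, all tested genes -0.02). Of 75 cytosolic ribosomal proteins 60 were above 0 in Low mice (median 0.17, 2 higher at that p, against 5.92% of all genes) and 71 in High mice (median 0.28, 2 higher at that p, against 3.28%), where 32 of 77 members were. None of these genes was called at an FDR of 0.1 by edgeR, and the differences between the families were not tested. The cytosolic score was highest in High Run mouse D62 (0.44), where the member scores were -0.10, and in D53 both were high (cytosolic 0.31, large subunit 0.26).

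Markers of other cell types were present in every mouse, with 0 of them at a count of 0. The 5 macrophage markers summed to 45.1 to 88.7 CPM in Low Control, 66.1 to 104.7 in Low Run, 37.7 to 58.3 in High Control and 53.8 to 114.1 in High Run. The 6 slow fibre markers summed to 1614 to 2675, 1753 to 3254, 1396 to 2222 and 1633 to 4101 CPM in the same order of groups. The 3 erythroid markers reached 3549 CPM in D53, against 355.5 to 1243 in the other High Run mice and 226.8 to 2205 elsewhere. The 7 skeletal muscle markers summed to 141110 to 163780 CPM in High Control and 104710 to 136850 in High Run, without overlap. They summed to 120890 to 169760 and 120510 to 146630 in Low Control and Low Run. Of these markers only Myh4, the most abundant, did not overlap between the High groups (51120 to 58630 and 31550 to 50220 CPM). Ckm, Acta1, Mb, Myh1, Myh2 and Tnnt3 overlapped there. Myh4 was also lower without overlap in Low mice (48770 to 69150 CPM in Low Control, 32690 to 46900 in Low Run), where the other muscle markers overlapped. The 4 adipocyte, 3 endothelial and 3 fibroblast markers overlapped between Run and Control mice in Low and in High mice. The part of these levels in the member values was not tested.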

How the data were processed

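Gastrocnemius RNA of 15 mice was sequenced after poly(A) selection, and the labels gave the group of every mouse and no batch. Per the submitters' processing notes, the authors used STAR 2.7.9a, featureCounts from Subread 2.0.3 and DESeq2 1.32.0, with genome build mm10 and Ensembl annotation. The deposited count values are whole uniquely aligned proper pairs per non-mitochondrial gene, same strand, without normalization. The deposited VST values are on a log2-like scale, made by the authors with DESeq2. Symbols, exon lengths and coordinates came from GENCODE M21 (GRCm38), with a symbol for 55190 of 55450 genes. The table also held 5 processed pseudogenes of the family, whose near-identical reads unique alignment would leave out.

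Counts were analysed in R 4.3.3 with edgeR 4.0.16 (filterByExpr, TMM, quasi-likelihood F-test, 1 mean per group, all 15 mice, Benjamini-Hochberg adjustment over the 16920 genes tested, FDR 0.1). SE values were derived from the same fit, as the absolute log2 fold change divided by the square root of its F statistic. The steps were tested on simulated data. Each mouse is 1 animal, and 3 or 4 mice per group limit the precision. Alternatives were DESeq2 1.42.0, RLE normalization, no count filter, voom with quality weights per mouse (limma 3.58.1), a fit to only the mice of each comparison, offsets from a loess (span 0.3) on length and GC content, log2 CPM with a prior count of 2, and leaving out each mouse. DESeq2 was run without a count filter, so its shares of all genes are over 35372 genes. Those of the setting with no count filter are over 35419. The corrected scores, the length classes, the principal transcript lengths and the second split by bacterial counterpart were added after seeing the data.

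Named members were the 3 with the smallest unadjusted p in each comparison, the 3 highest and 3 lowest by RPKM, members with a chosen known role, and the genes next to the count limit, with up to 2 genes per list of other genes by smallest p in Low mice. Mrpl33, Mrpl42, Mrpl50, Mrpl54, Mrpl9, Mrpl41, Mrpl47, Mrpl39 and Mrps33 were named after their values were seen. Members, lists and tests were chosen with earlier results of these data known. Promoter and motif searches used Python 3.11.15.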

Additional observations from a re-analysis of the deposited data

Results flagged for a closer look

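Within groups of 4 mice, a value was singled out where its gap to the nearest other mouse, divided by the range of the group, exceeded Dixon's 95% limit for 4 values. Of 72 sets of values tested (the subunit scores and the 22 named members in 3 groups) 7 passed, where chance gives about 1 in 20, and members that vary together are not independent. In High Run, mouse D53 stood above the other 3 mice in the large subunit score (0.26, gap 0.956 of the range), the small subunit score (0.21, 0.937), Mrps21 (109.8 CPM, 0.977) and Mrpl4 (47.3 CPM, 0.869). In Low Control, mouse D9 stood below the others in Mrpl18 (50.05 CPM, 0.895) and Mrpl49 (16.4 CPM, 0.831). In Low Run, mouse D68 stood above the others in Mrpl12 (128.3 CPM, 0.941). The level of short genes relative to long genes was 0.44 in D53, -0.35 in D9 and 0.37 in D68, where D57 at 0.39 was the other mouse far from 0. The cause was not tested.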

How the results depend on the processing

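The count of 0 members at an FDR of 0.1 held in each comparison under every alternative run, and none of the differences described by a median or a score reversed beyond the spread between mice. With voom the large and small subunit medians were 0.112 and 0.123 in Low mice and -0.087 and -0.137 in High mice. Members at an unadjusted p under 0.05 were 7 in Low mice with the length and GC offsets (4.41% of all genes higher). In High mice they were all lower. DESeq2 gave 1 (1.21% of all genes lower), RLE 1 (2.21%), voom 7 (5.57%) and the offsets 2 (3.59%), in place of 0 (1.9%). For the interaction 4 were lower without the count filter (2.26% of all genes) and 15 with voom (4.48%), in place of 8 (2.69%). Between Control groups 7 were higher with voom (4.14% of all genes) and 2 with the offsets (2.35%), in place of 1 (1.8%). Between Run groups 4 were lower with voom (2.09% of all genes), in place of 1 (0.987%). Members higher without overlap in Low mice were 3 with the offsets (2.04% of all genes), in place of 15 (3.35%). Leaving out 1 mouse at a time gave 4 to 20 in Low mice over the Low mice left out, beside 2.63% to 7.07% of all genes higher. Without High Run mouse D53 it gave 22 (6.59%). In High mice it gave 0 to 2 lower (1.21% to 2.9% of all genes), and for the interaction 2 to 23 lower (1.7% to 5.5%). Between Control groups it gave 1 to 7 higher (0.879% to 3.72%), and between Run groups 0 to 12 lower (0.75% to 2.41%). For the members without overlap it gave 15 to 25 higher in Low mice (4.15% to 6.42% of all genes). In High mice it gave 0 to 1 higher (4.93% to 8%) and 4 to 25 lower (5.01% to 8.2%). The small subunit median of the interaction ranged from -0.361 to -0.175. The cause of these changes was not tested.

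With 3 or 4 mice per group, differences of the size seen here lay near the spread between mice, and the lowest member, Mrpl23, rested on 56 to 134 counts per mouse. No paired analysis was possible because the mice carry separate identifiers and the groups share no replicate numbers.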
